A study of Mus musculus with 8 samples.

Results

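The genes described here carry long-chain fatty acids into heart cells and oxidise them in mitochondria, together with the PPAR regulators of that pathway. They were taken by gene symbol from a list of 35 genes, and their levels were read from the array across 4 groups of mouse hearts. Of the 35, 32 had a probe that belongs to 1 gene, out of 19938 genes tested. Acsl1 was in no probe's list of genes. Acsl3 and Cpt1b had only probes of 2 genes (shared with Utp14b and Gm44502), so no values are given for these members, and Cpt1b, the muscle form of carnitine palmitoyltransferase, is thus not analysed here.

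The working heart takes most of its fuel from fatty acids. Cd36 and fatty acid transport proteins bring them across the cell membrane, binding proteins carry them in the cytosol, acyl-CoA synthetases activate them, and the carnitine shuttle moves them into mitochondria. There, beta-oxidation shortens the acyl chain step by step and hands electrons to the respiratory chain. PPAR alpha, a nuclear receptor that fatty acids activate, binds DNA together with a retinoid X receptor, and the coactivators PGC-1 alpha and PGC-1 beta act with it and with the estrogen-related receptors on many of these genes. A lower level of this programme is a known feature of stressed and failing hearts.

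The mice were wild type (WT) or MAFbxKO (KO), without the muscle ubiquitin ligase MAFbx that Fbxo32 encodes. In each genotype the left coronary artery was permanently ligated to produce a myocardial infarction (MI), or a sham operation was done, and RNA was taken 1 day after ligation. The timing of the sham samples, the deleted part of the gene, the cells that lack it, the mice's age and the sampled part of the heart are not given in the labels. Sham and MI hearts of each genotype gave 2 arrays a group (WT sham, WT MI, KO sham, KO MI), and no label says that these were separate animals, so p-values reflect only the spread of these samples, and that spread may be technical.

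Values were the deposited log2 levels, which compare arrays for 1 probe and not probes with each other, and their precision is limited by the number of arrays. Array medians lay between 5.004 and 5.253. The targeted gene, Fbxo32, read 8.76 and 8.79 in WT sham, 4.68 and 5.17 in KO sham, 8.35 and 8.21 in WT MI, and 5.14 and 5.46 in KO MI, so every KO array lay below every WT array. On the second principal component over all genes, replicates 1 and 2 lay at -21.2 and 15.3 in KO sham and at 0.6 and -20.2 in WT MI. With 2 arrays a group, which of them stands apart from its partner cannot be told. KO sham replicate 1 and WT MI replicate 2, the lowest on that component, are called the arrays that stood apart below. Results that change without them are given both ways. A test passed at a limma adjusted p under 0.05 over all 19938 genes.

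The sequences before the gene starts were searched for the letters that nuclear receptors of the PPAR and estrogen-related receptor families are known to bind. A single AGGTCA on either strand was in 7 of 34 promoter entries of the members (20.6%), against 14% of all 32851 promoter entries, in the 250 bases before the RefSeq start (mouse build GRCm38.p6). A pair of AGGTCA in 1 direction 1 base apart, the form known for PPAR with a retinoid X receptor, was in 0 of the 34 (0.0335% of all). TCAAGGTCA, the form known for estrogen-related receptors, was also in 0 of the 34 (0.387% of all). TCAAGGTCA holds AGGTCA, and so does each element of the pair. The stretches shown are those with AGGTCA in members whose level passed the test after infarction. They come from Ucp3 (chr7:100472818-100472871 and chr7:100472923-100472976, plus strand), Cpt1a (chr19:3323183-3323236, plus strand), Rxra (chr2:27709181-27709234 and chr2:27709220-27709273, plus strand) and Acadm (chr3:153944863-153944893, minus strand). Each reads 5′ to 3′ in the direction of the gene, with the motif in capitals, and TGACCT marks AGGTCA on the opposite strand.
Ucp3, motif 149 bases before the start: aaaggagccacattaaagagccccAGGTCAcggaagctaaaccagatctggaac
Ucp3, motif 44 bases before the start: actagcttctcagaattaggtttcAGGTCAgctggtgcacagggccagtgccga
Cpt1a, motif 94 bases before the start: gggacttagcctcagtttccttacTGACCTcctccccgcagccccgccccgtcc
Rxra, motif 87 bases before the start: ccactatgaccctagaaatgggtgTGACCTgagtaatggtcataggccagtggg
Rxra, motif 48 bases before the start: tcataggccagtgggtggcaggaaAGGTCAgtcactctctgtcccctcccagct
Acadm, motif 249 bases before the start: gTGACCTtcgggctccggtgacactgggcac
Echs1, Acadvl and Cd36 also held the letters. A match of letters is a description of the sequence and was not tested as a binding site.

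The first question was how these genes stood 1 day after infarction in each genotype. In WT hearts 9 of the 32 measured members fell (28.1%, against 15.8% of all genes) and 1 rose (3.12%, against 12.3% of all genes). In KO hearts 9 fell as well (28.1%, against 10.3% of all genes) and 1 rose (3.12%, against 10.5%). These shares of all genes count genes of every level. With the genes of lowest level dropped, 11 members fell and 2 rose in each genotype. Of the 13292 genes left in that fit, 25.2% fell and 18.1% rose in WT, and 16.9% fell and 16.7% rose in KO. The members thus stood less far above the background in WT than the first shares show. The median difference between MI and sham was -0.34 on the log2 scale over the members in WT, where that over all genes was 0.04, and -0.25 in KO, where that over all genes was 0.01. The difference lay below 0 for 26 of 32 members in each genotype, and for 24 in both. Of all 19938 genes it lay below 0 for 9028 in WT and 9663 in KO. Some of the KO signs rested on KO sham replicate 2. The KO MI means of Slc25a20 (9.87), Etfb (12.04) and Eci2 (8.86) lay above KO sham replicate 1 (9.63, 11.88 and 8.65). Ppara, Ppargc1a, Ppargc1b, Rxra, Acot2, Mlycd and Slc27a1 fell in both genotypes and Acsl4 rose in both. Acadm and Etfa passed in WT alone, Cpt1a and Ucp3 passed in KO alone, and 20 members passed in neither. Whether those 4 respond differently is a test of its own, and none of them passed it. Among the 27 members that are not regulators the median difference was -0.27 in WT and -0.21 in KO. Of these 27, 5 fell in each genotype (18.5%, against 15.8% of all genes in WT and 10.3% in KO). In WT that share was near that of all genes. Of the 27, 1 rose in each genotype (3.7%, against 12.3% and 10.5%).

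The count of falls depended on single arrays. In WT it was 6 without WT sham replicate 1 (10.1% of all genes fell in that fit), 5 without WT sham replicate 2 (9.8%) and 5 without WT MI replicate 1 (12.9%). In KO it was 14 without KO sham replicate 1 (10.4% of all genes), 5 without KO sham replicate 2 (8.31%), 3 without KO MI replicate 1 (5.19%) and 6 without KO MI replicate 2 (4.87%). With both KO sham replicate 1 and WT MI replicate 2 left out, 11 members fell (15.1% of all genes) and 1 rose (11.2%) in WT, and 12 fell (12.3%) and 0 rose (10.3%) in KO. Under cyclic loess the median difference in WT was -0.172, with 23 members below 0, 7 falls (14.2% of all genes) and 2 rises (14.3%).

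**Figure D1:**
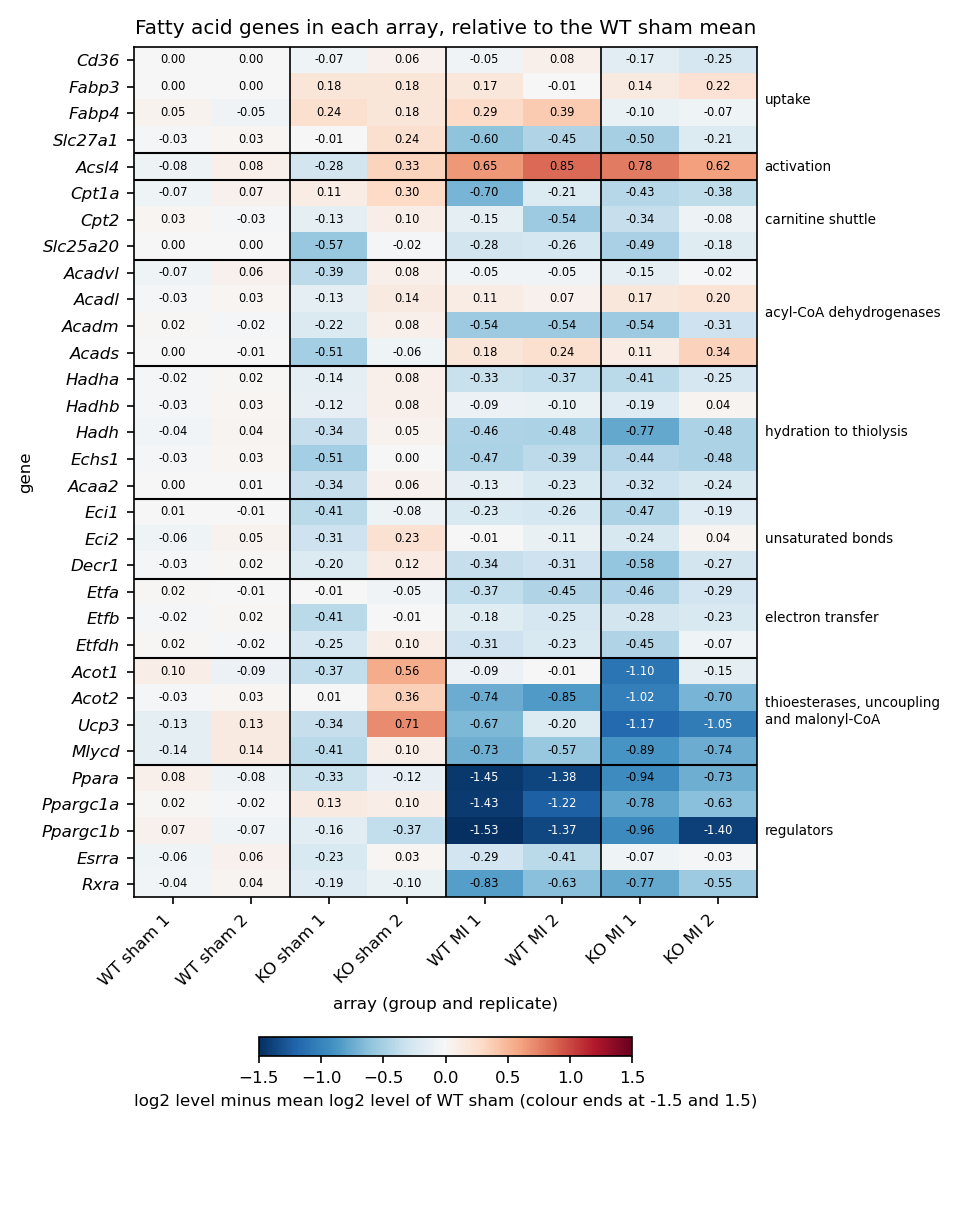
Log2 level of each of the 32 measured genes (rows, grouped by role) in each of the 8 arrays (columns), minus the gene's mean in WT sham; blue is lower, red is higher and the colour ends at -1.5 and 1.5. Ppara, Ppargc1a and Ppargc1b hold the lowest values in both WT MI arrays, Acsl4 is above the WT sham mean in all 4 MI arrays, and KO sham replicate 1 is lower than KO sham replicate 2 in 28 of 32 genes.

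Cell type markers moved with infarction as well. The summed level of 6 neutrophil markers was between 6.92 and 7.23 (log2 of the sum) in the sham arrays, 11.76 and 12.48 in WT MI and 10.66 and 11.22 in KO MI, and 6 of 6 rose in both genotypes. That of 8 cardiomyocyte markers, led by Myh6, Tnnt2 and Actc1, was between 16.43 and 16.54 in the sham arrays, 16.35 and 16.31 in WT MI and 16.42 and 16.40 in KO MI. Of these 8, 3 fell in WT (15.8% of all genes) and 1 fell in KO (10.3%). The sum of 10 liver markers, led by Alb, varied among the sham arrays between 8.02 and 11.14 and lay between 7.80 and 8.16 in the MI arrays. That of 6 fibroblast markers lay between 13.14 and 13.31 in sham and between 12.54 and 12.85 in MI. For 4 smooth muscle markers the sum also differed between genotypes in sham, at 11.16 and 11.80 in WT and 9.84 and 10.01 in KO. It was 10.23 and 11.33 in WT MI and 10.03 and 10.13 in KO MI. Between KO sham and WT sham 0 of these 4 passed. In RNA of heart tissue, fewer cells of a type and less RNA per cell cannot be told apart. The part that these marker differences have in the results on fatty acid genes was not tested.

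The 3 largest falls in WT were those of regulators. Over all genes 15.8% fell in WT and 10.3% in KO, shares that also stand beside the counts by role below. With the genes of lowest level dropped, those shares were 25.2% and 16.9%. Of the 5 regulators 4 fell in WT, with a median difference of -1.32 over the 5. In KO the same 4 fell, with a median of -0.62. Those 4 also fell in both genotypes under cyclic loess and under median centring. Ppara encodes PPAR alpha. It read 9.42 and 9.26 in WT sham, 7.89 and 7.96 in WT MI, 9.01 and 9.22 in KO sham, and 8.40 and 8.61 in KO MI. Every MI array lay below every sham array, and both WT MI arrays lay below both KO MI arrays. Its log2 difference was -1.42 (SE 0.14, limma adjusted p = 7.44e-05) in WT and -0.62 (SE 0.14, 1.53-fold lower, adjusted p = 0.0109) in KO. Without KO MI replicate 1 the fall in KO did not pass (adjusted p = 0.0956).

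Ppargc1a, which encodes PGC-1 alpha, kept the same order of the MI groups. Its levels were 10.52 and 10.48 in WT sham, 9.07 and 9.28 in WT MI, 10.63 and 10.60 in KO sham, and 9.72 and 9.87 in KO MI. The MI arrays lay below the sham arrays with no overlap, and those of WT MI lay below those of KO MI. The log2 difference was -1.32 (SE 0.13, limma adjusted p = 7.05e-05) in WT and -0.82 (SE 0.13, 1.76-fold lower, adjusted p = 0.00171) in KO. A second probe of the gene read 9.42 and 9.64 in WT sham, 7.98 and 8.33 in WT MI, 9.80 and 9.77 in KO sham, and 8.82 and 8.70 in KO MI, with WT MI again below KO MI.

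Ppargc1b encodes PGC-1 beta, a related coactivator. Levels of 8.57 and 8.43 in WT sham stood against 6.97 and 7.13 in WT MI, and 8.34 and 8.13 in KO sham against 7.54 and 7.10 in KO MI. MI and sham arrays did not overlap in either genotype, and KO MI replicate 2 lay within the range of WT MI. The gene was 2.72-fold lower in WT (log2 difference -1.45, SE 0.17, limma adjusted p = 0.000196) and 1.89-fold lower in KO (-0.92, SE 0.17, adjusted p = 0.00389). Both differences passed in all 17 alternatives.

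Rxra encodes the retinoid X receptor alpha, a DNA-binding partner of PPAR alpha. It read 8.43 and 8.51 in WT sham and 7.64 and 7.84 in WT MI, and 8.28 and 8.37 in KO sham and 7.70 and 7.92 in KO MI. The MI arrays of the genotypes overlapped each other, and all lay below the sham arrays. Its fall was 1.66-fold in WT (log2 difference -0.73, SE 0.13, limma adjusted p = 0.00286) and 1.43-fold in KO (-0.52, SE 0.13, adjusted p = 0.0229). In KO it did not pass without KO sham replicate 2 (adjusted p = 0.0758), without KO MI replicate 1 (0.166) or with the compared groups alone (0.0539).

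Esrra, which encodes the estrogen-related receptor alpha, was the regulator that passed in neither genotype. It read 8.0 and 8.12 in WT sham, 7.77 and 7.65 in WT MI, 7.83 and 8.09 in KO sham, and 7.99 and 8.03 in KO MI. WT MI lay below WT sham, and the KO arrays overlapped. The log2 difference was -0.35 in WT (SE 0.13, limma adjusted p = 0.082) and 0.05 in KO (SE 0.13, adjusted p = 0.848). The KO sham arrays enter the estimate of the spread, and without replicate 1 or without replicate 2 of them the WT difference passed (adjusted p = 0.0438 each).

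**Figure D2:**
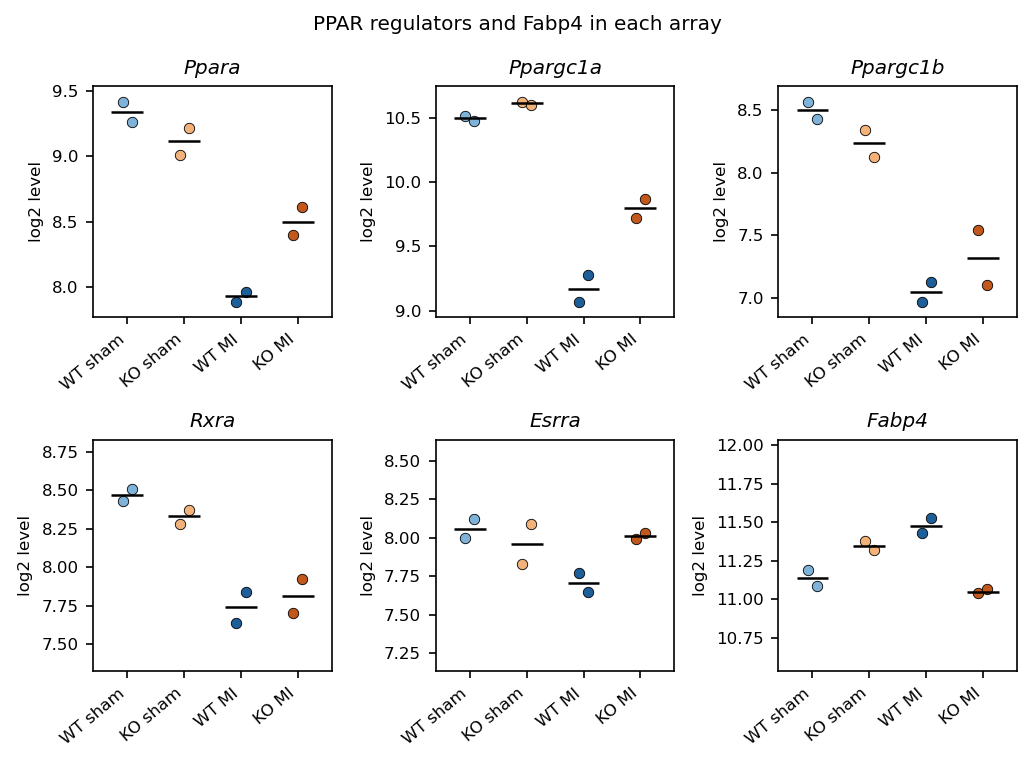
Log2 level (vertical axes, a separate scale for each gene) of Ppara, Ppargc1a, Ppargc1b, Rxra, Esrra and Fabp4 in the 4 groups, with a point for each array and a line at the mean of the 2 arrays. Ppara in WT MI (7.89 and 7.96) lies below KO MI (8.40 and 8.61), and Fabp4 in WT MI (11.43 and 11.53) lies above KO MI (11.04 and 11.07).

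Among the genes that handle acyl-CoA beside the main route, 2 of 4 fell in WT (15.8% of all genes) and 3 of 4 in KO (10.3%). Their median differences were -0.54 and -0.88. Acot2, a mitochondrial thioesterase that splits acyl-CoA into the free acid and coenzyme A, read 12.09 and 12.15 in WT sham and 11.38 and 11.27 in WT MI. In KO it read 12.13 and 12.48 in sham and 11.10 and 11.42 in MI. All MI arrays lay below all sham arrays. It was 1.74-fold lower in WT (log2 difference -0.80, SE 0.16, limma adjusted p = 0.00441) and 2.07-fold lower in KO (-1.05, SE 0.16, adjusted p = 0.00151), and passed in both genotypes in all 17 alternatives. Acot1, its cytosolic paralog, ranged from 5.07 to 6.73 with overlap of MI and sham arrays in both genotypes (adjusted p = 0.918 in WT and 0.164 in KO). In KO its difference of -0.72 was -1.19 and passed without KO sham replicate 1 (adjusted p = 0.0391) or KO MI replicate 2 (0.0496), and was -0.26 without KO sham replicate 2 (0.665) and -0.25 without KO MI replicate 1 (0.713). These paralogs are close in sequence, and how far their probes share signal was not tested.

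Ucp3 encodes an uncoupling protein of muscle mitochondria whose transcript is known to follow fatty acid supply. Its levels were 7.75 and 8.01 in WT sham, 7.21 and 7.68 in WT MI, 7.54 and 8.59 in KO sham, and 6.71 and 6.83 in KO MI. The KO MI arrays were the lowest of the 8, and the KO sham arrays were the furthest apart. The fall in KO was 2.45-fold (log2 difference -1.29, SE 0.29, limma adjusted p = 0.0124), and it did not pass without KO MI replicate 1 (0.0801) or KO MI replicate 2 (0.0604). Without KO sham replicate 2 it was -0.76 and passed (0.0399). In WT the difference was -0.44 (SE 0.29, adjusted p = 0.311), with -0.20 without WT MI replicate 1 (0.726), and with both arrays that stood apart left out it was -0.67 and passed (0.0175).

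Mlycd encodes malonyl-CoA decarboxylase, which removes the malonyl-CoA that blocks the carnitine shuttle. It read 8.16 and 8.44 in WT sham against 7.57 and 7.73 in WT MI, and 7.89 and 8.40 in KO sham against 7.41 and 7.56 in KO MI. MI arrays lay below sham arrays in each genotype. It fell 1.57-fold in WT (log2 difference -0.65, SE 0.18, limma adjusted p = 0.0235) and 1.58-fold in KO (-0.66, SE 0.18, adjusted p = 0.0276). The WT call did not hold without WT sham replicate 2 (0.171), WT MI replicate 1 (0.107) or WT MI replicate 2 (0.0573). The KO call was lost without KO sham replicate 2 (0.131, at a log2 difference of -0.41), KO MI replicate 1 (0.155) or KO MI replicate 2 (0.0857), and with the compared groups alone (0.0502).

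**Figure D3:**
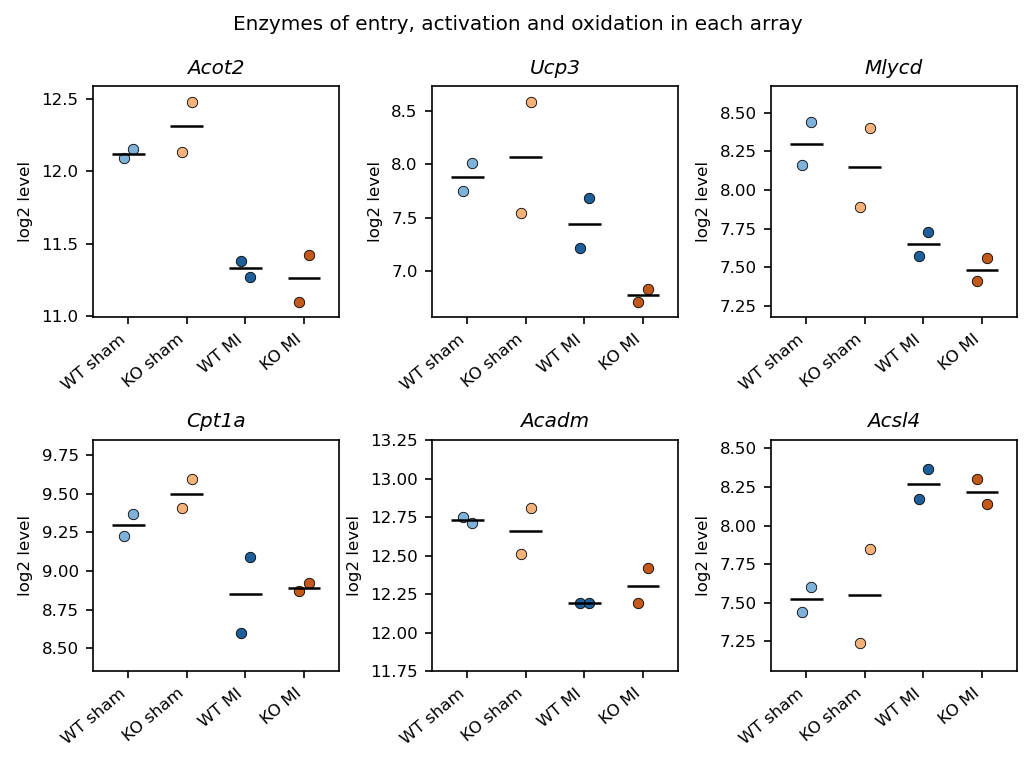
Log2 level (vertical axes, a separate scale for each gene) of Acot2, Ucp3, Mlycd, Cpt1a, Acadm and Acsl4 in the 4 groups, with a point for each array and a line at the mean of the 2 arrays. None of these genes shows overlap of MI and sham arrays within either genotype, and the KO sham arrays of Ucp3 (7.54 and 8.59) are far apart.

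Uptake genes did not move together. The median difference over the 4 members was 0.05 in WT and -0.25 in KO. Of the 4, 1 fell in each genotype, where 15.8% of all genes fell in WT and 10.3% in KO. That gene was Slc27a1, which encodes a fatty acid transport protein, with 10.43 and 10.49 in WT sham against 9.86 and 10.01 in WT MI, and 10.45 and 10.70 in KO sham against 9.96 and 10.25 in KO MI. Its MI arrays lay below the sham arrays in both genotypes. The falls were 1.44-fold in WT (log2 difference -0.53, SE 0.15, limma adjusted p = 0.0232) and 1.39-fold in KO (-0.47, SE 0.15, adjusted p = 0.0463). In WT the call did not hold under cyclic loess (adjusted p = 0.0638) or without WT sham replicate 1 (0.0889), WT sham replicate 2 (0.13) or WT MI replicate 1 (0.105). In KO it held without KO sham replicate 1 and did not hold without any 1 of the other 7 arrays, where the adjusted p was between 0.0546 and 0.283.

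Cd36, the main fatty acid translocase of the heart, read 12.56 in both WT sham arrays and 12.51 and 12.64 in WT MI, and 12.49 and 12.62 in KO sham and 12.39 and 12.31 in KO MI. The WT arrays overlapped (adjusted p = 0.938), and the KO MI arrays lay below the KO sham arrays by a difference that did not pass (-0.21, SE 0.12, limma adjusted p = 0.29). Fabp3, the binding protein of heart muscle, lay between 12.78 and 13.01 in all 8 arrays, and its difference was 0.08 in WT (adjusted p = 0.677) and 0.00 in KO (0.999).

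Fabp4, a binding protein of fat cells and of capillary endothelium, differed in sign between the genotypes. It read 11.19 and 11.09 in WT sham and 11.43 and 11.53 in WT MI, against 11.38 and 11.32 in KO sham and 11.04 and 11.07 in KO MI. WT MI was the highest group and KO MI the lowest, with no overlap of MI and sham arrays in either genotype. Neither difference passed, at 0.34 in WT (SE 0.12, limma adjusted p = 0.0579) and -0.30 in KO (SE 0.12, adjusted p = 0.111). The WT rise passed without KO sham replicate 1 or replicate 2 (adjusted p = 0.0442 each) and under cyclic loess (0.0115), among 6 of 17 alternatives, and the KO fall passed with an intensity trend (0.0283), 1 of 17. Among 5 measured fat cell markers 0 passed in either genotype, and Adipoq, the defining one, read between 2.88 and 3.66 over the 8 arrays. The sum of 8 endothelial markers was 12.82 in both WT sham arrays and 12.77 and 12.62 in WT MI. In KO it was 12.77 and 12.79 in sham and 12.59 and 12.48 in MI. That sum was thus lower in MI in both genotypes, while single markers went both ways. In WT 4 of the 8 lay above 0 and the median was 0.03. Kdr and Tek fell there (25.0%, against 15.8% of all genes) and Esam rose (12.5%, against 12.3%). In KO 2 of the 8 lay above 0 and Kdr, Tie1 and Tek fell (37.5%, against 10.3%). The part of these markers in the Fabp4 values was not tested.

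Acsl4 was the member of the activation step that could be measured, and it rose. This acyl-CoA synthetase is known for its preference for arachidonic acid and other polyunsaturated fatty acids. It read 7.44 and 7.6 in WT sham, 8.17 and 8.37 in WT MI, 7.24 and 7.85 in KO sham, and 8.30 and 8.14 in KO MI. Every MI array lay above every sham array. The rise was 1.68-fold in WT (log2 difference 0.75, SE 0.19, limma adjusted p = 0.0159) and 1.59-fold in KO (0.67, SE 0.19, adjusted p = 0.0337). In WT it did not pass without WT sham replicate 1 (0.102) or WT MI replicate 2 (0.101). In KO it did not pass without KO sham replicate 1 (0.144, at a log2 difference of 0.37), KO MI replicate 1 (0.177) or KO MI replicate 2 (0.097), nor with the compared groups alone (0.0648).

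All 3 measured genes of the carnitine shuttle had a difference below 0 in both genotypes. For Slc25a20 in KO it was only -0.03, with overlapping arrays. The median difference of the 3 was -0.35 in WT and -0.20 in KO, and 1 passed, in KO, where 10.3% of all genes fell. Under cyclic loess 2 of the 3 lay lower in KO. Cpt1a encodes the carnitine palmitoyltransferase of the outer mitochondrial membrane that predominates in liver and is also present in heart. It read 9.23 and 9.37 in WT sham, 8.60 and 9.09 in WT MI, 9.41 and 9.60 in KO sham, and 8.87 and 8.92 in KO MI, with MI below sham in each genotype. The fall in KO was 1.52-fold (log2 difference -0.61, SE 0.17, limma adjusted p = 0.0296) and did not pass without KO sham replicate 2 (0.121), KO MI replicate 1 (0.141) or KO MI replicate 2 (0.114). In WT the difference of -0.45 did not pass (SE 0.17, adjusted p = 0.0736), and without WT MI replicate 2 it was -0.70 and did (0.0158). It was -0.21 without WT MI replicate 1 (0.375) and -0.28 under cyclic loess (0.243).

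Cpt2, the enzyme of the inner membrane, read 10.70 and 10.64 in WT sham against 10.52 and 10.13 in WT MI, and its difference was -0.35 in WT (limma adjusted p = 0.153) and -0.20 in KO (0.486). Slc25a20, the carrier that exchanges acylcarnitine for carnitine, differed by -0.27 in WT (adjusted p = 0.321) and by -0.03 in KO (0.93), where KO sham replicate 1 read 9.63 and KO sham replicate 2 read 10.18.

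The acyl-CoA dehydrogenases, which carry out the first step of each round for different chain lengths, differed in sign among themselves. Acadm, for medium chains, read 12.75 and 12.71 in WT sham and 12.19 in both WT MI arrays, and 12.51 and 12.81 in KO sham and 12.19 and 12.42 in KO MI. MI arrays were lower in both genotypes with no overlap. It fell 1.46-fold in WT (log2 difference -0.54, SE 0.14, limma adjusted p = 0.0177) and was lower by a difference that did not pass in KO (-0.36, SE 0.14, adjusted p = 0.11). The WT call needed every WT array, and did not hold without WT sham replicate 1 (0.103), WT sham replicate 2 (0.0813), WT MI replicate 1 (0.0607) or WT MI replicate 2 (0.0712), with differences between -0.52 and -0.56. In KO the difference was -0.51 without KO sham replicate 1, and passed (0.0435), while it was -0.21 without KO sham replicate 2 (0.377) and -0.24 without KO MI replicate 1 (0.446).

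Acads, for short chains, lay on the other side of 0. It read 10.09 and 10.08 in WT sham and 10.27 and 10.33 in WT MI, and 9.58 and 10.03 in KO sham and 10.20 and 10.43 in KO MI. The MI arrays lay above the sham arrays in each genotype. The difference was 0.22 in WT (SE 0.16, limma adjusted p = 0.363) and 0.51 in KO (SE 0.16, adjusted p = 0.0523), and without KO sham replicate 2 the latter was 0.74 and passed (0.0101). It was 0.28 without KO sham replicate 1 (0.223) and with both arrays that stood apart left out (0.202). Acadl, for long chains, differed by 0.09 in WT (adjusted p = 0.662) and 0.18 in KO (0.416). Acadvl, for very long chains, differed by -0.05 in WT (0.864) and 0.06 in KO (0.841), with overlapping arrays in both.

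In the later steps of the spiral 0 of 5 genes passed in either genotype, while all 5 differences were below 0 in both, with medians of -0.35 in WT and -0.21 in KO. Under cyclic loess 4 of the 5 were below 0 in WT, and 1 passed in KO, and under median centring 2 passed in WT and 1 in KO. Hadh, the 3-hydroxyacyl-CoA dehydrogenase, came nearest to the threshold. It read 12.71 and 12.79 in WT sham against 12.29 and 12.27 in WT MI, and 12.41 and 12.80 in KO sham against 11.98 and 12.27 in KO MI. MI arrays were the lower ones in both genotypes. The difference was -0.47 in WT (SE 0.16, limma adjusted p = 0.0518) and -0.48 in KO (SE 0.16, adjusted p = 0.0615), and it passed in 8 of 17 alternatives in WT and in 7 of 17 in KO, among them without KO sham replicate 1 (0.0231 in WT, 0.0204 in KO). In KO it was -0.28 without KO sham replicate 2 (0.261).

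The trifunctional protein joins the enzymes of Hadha and Hadhb in a single complex. Hadha read 12.75 and 12.79 in WT sham and 12.44 and 12.40 in WT MI, a difference of -0.35 (limma adjusted p = 0.0705) that passed without KO sham replicate 1 or replicate 2 (0.0424 each), and it differed by -0.30 in KO (0.136). Hadhb differed by -0.09 in WT (adjusted p = 0.662) and by -0.06 in KO (0.823). Echs1, the short-chain enoyl-CoA hydratase, differed by -0.43 in WT (0.078, and 0.0151 without KO sham replicate 1 or replicate 2) and by -0.21 in KO (0.454), where KO sham replicate 1 read 9.89 and KO sham replicate 2 read 10.40. The direction in KO rested on these arrays, with -0.46 without replicate 1, which passed (0.0406), and 0.05 without replicate 2 (0.851). Acaa2, a thiolase of the last step, differed by -0.19 in WT (0.389) and by -0.14 in KO (0.592).

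Of the 3 enzymes that remove double bonds from unsaturated chains 0 passed in either genotype. Decr1, the dienoyl-CoA reductase, read 10.87 and 10.92 in WT sham against 10.56 and 10.59 in WT MI, a difference of -0.32 (limma adjusted p = 0.15). In KO it differed by -0.39 (adjusted p = 0.11), and by -0.55 without KO sham replicate 1, which passed (0.0489). It was -0.23 without KO sham replicate 2 (0.39) or without KO MI replicate 1 (0.491). The isomerases Eci1 and Eci2 differed by -0.24 and -0.05 in WT and by -0.08 and -0.06 in KO, with adjusted p between 0.268 and 0.883.

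The electron transfer flavoprotein and its dehydrogenase pass electrons from the acyl-CoA dehydrogenases to ubiquinone. Etfa, the alpha subunit, read 11.36 and 11.33 in WT sham and 10.97 and 10.89 in WT MI, and 11.33 and 11.29 in KO sham and 10.88 and 11.05 in KO MI. All MI arrays lay below all sham arrays. It fell 1.33-fold in WT (log2 difference -0.41, SE 0.12, limma adjusted p = 0.0304) and differed by -0.34 in KO (SE 0.12, adjusted p = 0.0785). That call did not hold under cyclic loess (adjusted p = 0.152), without WT sham replicate 1 (0.155), WT sham replicate 2 (0.131), WT MI replicate 1 (0.06) or WT MI replicate 2 (0.128), and with both arrays that stood apart left out (0.0858). Etfb, the beta subunit, differed by -0.21 in WT (0.329) and by -0.04 in KO (0.894). Etfdh differed by -0.27 in WT (0.26) and by -0.18 in KO (0.523).

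Within each KO group replicate 1 was the lower array for most of these genes. KO sham replicate 1 was lower than KO sham replicate 2 in 28 of 32 members, with a median gap of -0.31 and a range from -1.06 to 0.21, where the median gap over all genes was -0.01. KO MI replicate 1 was lower than KO MI replicate 2 in 28 of 32 members, with a median gap of -0.17 (all genes -0.02). In WT sham 22 of 32 members agreed within 0.1 and the median gap was -0.04, and in WT MI it was -0.03. The sum of liver markers was 10.80 in KO sham replicate 1 and 8.02 in KO sham replicate 2, and the sum of cardiomyocyte markers was 16.43 and 16.51. Their part in this gap was not tested.

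The second question was whether loss of MAFbx changes these genes. In sham hearts 0 of 32 members passed between KO and WT (0.00502% of all genes were higher and 0.0251% lower), and 0 had an unadjusted limma p under 0.05, where 5.1% of all genes did. Differences between the KO and WT sham means ran from -0.29, for Slc25a20, to 0.21, for Fabp4.

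After infarction 0 of 32 passed between KO and WT as well (0.0301% of all genes were higher and 0.0401% lower). An unadjusted limma p under 0.05 was found for 4 members (12.5%, against 11.7% of all genes), which is near the background. These were Ppargc1a, Ppara, Fabp4 and Ucp3. Ppargc1a was 1.54-fold higher in KO MI than in WT MI (log2 difference 0.62, SE 0.13, limma adjusted p = 0.135, range over alternatives 0.0364 to 0.493). It passed when the prior followed the mean level of the gene (0.0364) and in none of the other 16 alternatives. Ppara was 1.49-fold higher (log2 difference 0.58, SE 0.14, adjusted p = 0.184), Fabp4 1.34-fold lower (-0.42, SE 0.12, 0.235) and Ucp3 1.59-fold lower (-0.67, SE 0.29, 0.42). For each of these 4 genes the KO MI and WT MI arrays did not overlap. They were picked by their p in this same comparison, so the lack of overlap adds no support. The share of all genes without overlap was not counted. The summed neutrophil markers were lower in both KO MI arrays than in both WT MI arrays, and their part in these differences was not tested.

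The test of the difference between the infarction responses, KO minus WT, passed for 0 of 32 members (0% of all genes were higher and 0% lower). An unadjusted limma p under 0.05 was found for 4 members (12.5%, against 8.21% of all genes). Ppara had a difference of responses of 0.80 (SE 0.19, limma adjusted p = 0.415), Ppargc1b of 0.53 (SE 0.23, 0.608) and Ppargc1a of 0.50 (SE 0.18, 0.548), so the estimated falls were smaller in KO by amounts that did not pass. Fabp4 had a difference of -0.64 (SE 0.17, adjusted p = 0.47) and Ucp3 of -0.85 (SE 0.42, 0.641). The genes called in 1 genotype alone were far from the threshold, with 0.18 for Acadm (adjusted p = 0.825), 0.07 for Etfa (0.928) and -0.16 for Cpt1a (0.875). A p above the threshold does not show that the genotypes respond alike.

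**Figure D4:**
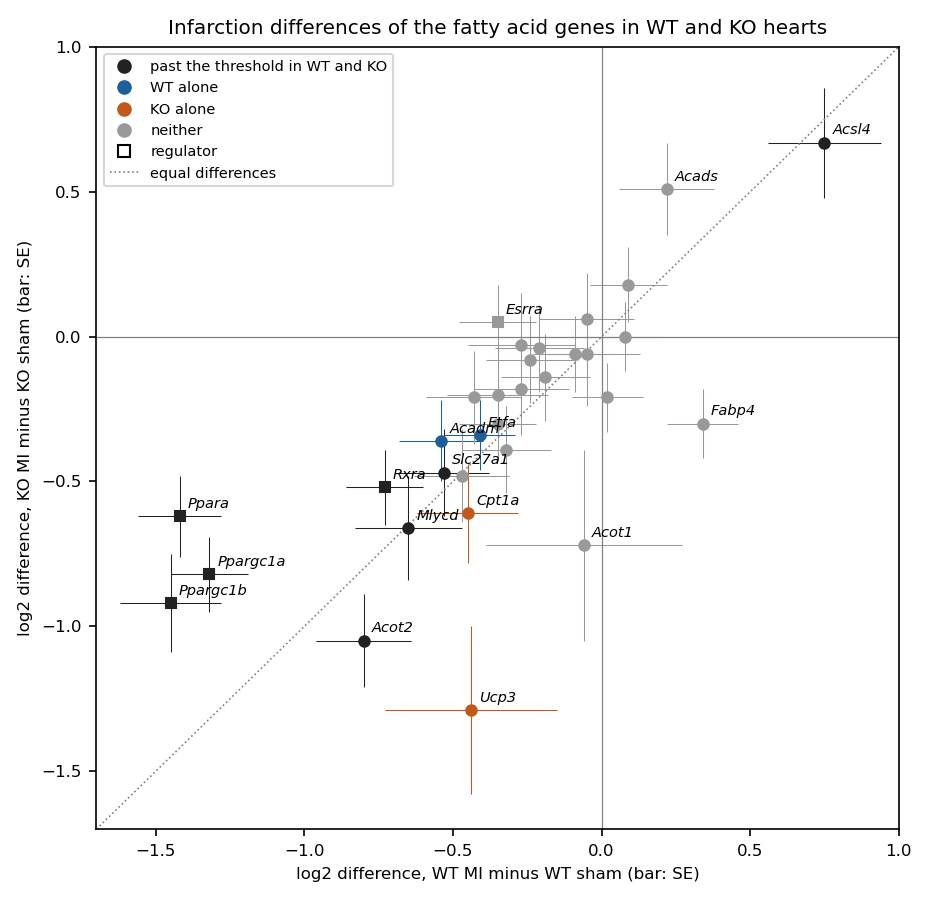
Log2 difference between MI and sham in WT (horizontal axis) and in KO (vertical axis) for the 32 measured genes, with bars of 1 SE, squares for regulators and a dotted line of equal differences; colours show where the difference passed an adjusted p under 0.05. Ppara, Ppargc1a and Ppargc1b lie above the line, Ucp3 and Fabp4 below it, and the difference of responses passed for 0 of the 32.

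Averaged over sham and MI, 0 of 32 members passed between KO and WT (0.0251% of all genes were higher and 0.0301% lower). An unadjusted limma p under 0.05 was found for 1 member, Ppargc1a (3.12%, against 7.27% of all genes), which was 1.29-fold higher in KO (log2 difference 0.37, SE 0.12, adjusted p = 0.524).

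Other genes of lipid supply, storage and control were read beside the members, from a list of 64 genes of which 58 were measured. In WT 5 rose (8.62%, against 12.3% of all genes) and 21 fell (36.2%, against 15.8%), with a median difference of -0.30. In KO 4 rose (6.9%, against 10.5%) and 15 fell (25.9%, against 10.3%), with a median of -0.12. With the genes of lowest level dropped, 24 of these lipid genes fell in WT, where 25.2% of all genes left fell. In KO 17 genes fell in that fit, where 16.9% of all genes left fell. How many of the 58 were left in that fit was not counted, so these 2 counts are not given as shares. Angptl4, an inhibitor of lipoprotein lipase, read 6.07 and 6.0 in WT sham and 9.55 and 9.36 in WT MI, and 5.95 and 7.59 in KO sham and 8.99 and 9.0 in KO MI. The MI arrays lay above the sham arrays in both genotypes, and the KO sham arrays were far apart. It rose 10.7-fold in WT (log2 difference 3.42, SE 0.39, limma adjusted p = 0.000208) and 4.69-fold in KO (2.23, SE 0.39, adjusted p = 0.00351). Without KO sham replicate 1 the KO rise was 1.41 on the log2 scale and passed (0.000763).

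Plin2, a coat protein of lipid droplets, rose 4.27-fold in WT (limma adjusted p = 7.6e-05) and 3.10-fold in KO (0.000515). G0s2, an inhibitor of the triglyceride lipase Pnpla2, rose 1.43-fold in WT (0.00978) and 2.08-fold in KO (0.000318). Acsl5, another acyl-CoA synthetase, rose 1.48-fold in WT (0.0292) and 1.78-fold in KO (0.00627). The rise of G0s2 in WT did not pass without WT sham replicate 1 (0.0597) or WT sham replicate 2 (0.0769). That of Acsl5 in WT did not pass without WT sham replicate 1 (0.107), WT sham replicate 2 (0.135) or WT MI replicate 1 (0.161), and in KO it did not pass without KO MI replicate 1 (0.0619).

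Among the falls were more regulators. Rxrg, the retinoid X receptor gamma, was 2.73-fold lower in WT (limma adjusted p = 4.35e-05) and 1.85-fold lower in KO (0.00118). Esrrg, the estrogen-related receptor gamma, was 2.53-fold lower in WT (5.61e-05) and 2.14-fold lower in KO (0.000319). It read 8.58 and 8.37 in WT sham against 7.12 and 7.15 in WT MI, and 8.53 and 8.49 in KO sham against 7.46 and 7.37 in KO MI, while Esrra passed in neither genotype. Lpin1, a phosphatidate phosphatase that also acts as a coactivator, was 2.54-fold lower in WT (0.000119) and 1.54-fold lower in KO (0.0118). The KO fall did not pass without KO sham replicate 2 (0.0546), KO MI replicate 1 (0.0631) or KO MI replicate 2 (0.0751).

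Genes around the carnitine shuttle fell too. Of 5 measured genes of carnitine and malonyl-CoA control 4 fell in WT and 3 in KO, where 15.8% and 10.3% of all genes fell. Acacb, the acetyl-CoA carboxylase that makes malonyl-CoA at mitochondria, was 2.44-fold lower in WT (limma adjusted p = 5.15e-05) and 1.70-fold lower in KO (0.00157), so it fell along with Mlycd, which removes the same compound. Slc22a5, the carnitine transporter of the cell membrane, read 7.59 and 7.95 in KO sham and 6.63 and 6.38 in KO MI and was 2.40-fold lower there (0.00086), and 2.67-fold lower in WT (0.000268). Of 7 measured genes of peroxisomal oxidation 3 fell in each genotype, against the same shares of all genes. In the comparisons between genotypes 0 of the 58 genes passed. Angptl4 differed between KO sham and WT sham by 0.73 (limma adjusted p = 1.0), and by 1.56 without KO sham replicate 1, which passed (0.0163), or with both arrays that stood apart left out (0.0248), but by -0.09 without KO sham replicate 2 (0.842).

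**Figure D5:**
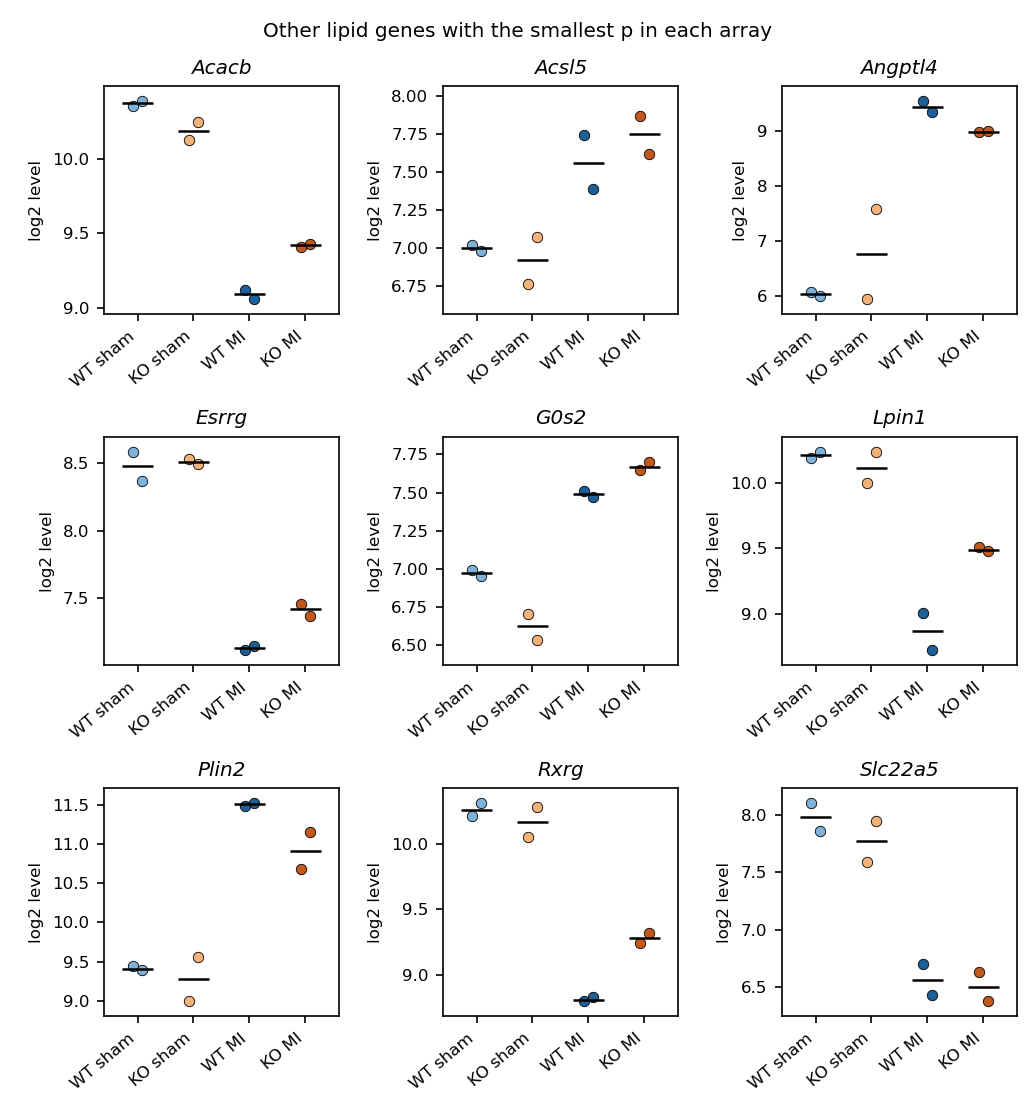
Log2 level (vertical axes, a separate scale for each gene) of the 9 other lipid genes named by their p in either genotype, in the 4 groups, with a point for each array and a line at the mean of the 2 arrays. Angptl4, Plin2, G0s2 and Acsl5 are higher in every MI array than in every sham array, and Acacb, Esrrg, Lpin1, Rxrg and Slc22a5 are lower. The genes were picked by their p in these same comparisons, so the lack of overlap adds no support.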

How the data were processed

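RNA of 8 heart samples was read on the Affymetrix Mouse Gene ST array. The deposited values are log2 levels, for which the submitters' processing notes name Affymetrix Expression Console and RMA (versions not given in the sources used here). RMA as commonly run makes array distributions alike, which would reduce a shift shared by most genes. Of 35556 probes, 21789 were paired with 1 gene, 1621 with several and 12146 with none listed. Each gene was read from its probe with the highest mean (3 members had 2 probes). The tests used limma (3.58.1, under R 4.3.3) with 4 group means over 8 arrays (4 residual degrees of freedom, 5.57 from the prior), two-sided, Benjamini-Hochberg adjusted over 19938 genes, with no filter on low levels. The averaged KO effect used condition as an additive term. An exact permutation test of 2 arrays against 2 cannot give a p under 0.333, so none was used.

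Members, lists, tests and naming rules were chosen with earlier results of these data known. Named were all members, Fbxo32 and, from the other lipid genes, up to 4 per direction and infarction comparison with the smallest p among those that passed. Marker lists are given by counts and summed levels. The 17 alternatives left out each array in turn, rescaled the arrays by cyclic loess or by median centring, weighted them, used a prior that follows the mean level (intensity trend), dropped the lowest 33.3% of genes, averaged a gene's probes, fitted only the compared groups, or took the replicate number as a block. The last, leaving out KO sham replicate 1 and WT MI replicate 2 together, was chosen after seeing the data. A group left with 1 array borrows its spread from the rest. The code was tested on simulated data. RefSeq promoter entries matched 30 members. Figures used matplotlib 3.10.9 in Python 3.11.15.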

Additional observations from a re-analysis of the deposited data

Results flagged for a closer look

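Fabp4 stood out because its levels moved in opposite directions after infarction, up in both WT MI arrays and down in both KO MI arrays relative to the sham arrays of the same genotype, with no overlap. The difference of the responses, KO minus WT, was -0.64 on the log2 scale (SE 0.17). It was tested and did not pass (limma adjusted p = 0.47, range over 16 alternatives 0.135 to 0.973).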

How the results depend on the processing

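The count of members that passed in WT MI against WT sham was 10, and 16 with array weights. Of all genes 12.3% rose and 15.8% fell in the main fit, and 14.5% and 17.9% with array weights. In KO MI against KO sham the count of members was 10, and 16 with an intensity trend and 6 with the compared groups alone. There 10.5% of all genes rose and 10.3% fell in the main fit. With an intensity trend it was 11.2% each way, and with the compared groups alone 8.28% rose and 7.6% fell. Leaving out each array in turn gave 6 to 15 in WT and 3 to 14 in KO. The share of all genes that passed also moved with the array left out, as the falls given above show. Between KO MI and WT MI the count of members was 0, and 1 with an intensity trend (0.201% of all genes higher and 0.115% lower). The replicate number as a block gave 12 in WT and 12 in KO and 0 in the comparisons between genotypes. In that fit 11.5% of all genes rose and 14.8% fell in WT, and 9.7% rose and 9.41% fell in KO. The labels do not say that equal numbers pair samples, and the gaps between replicates of a group correlated between groups at r from -0.187 to 0.156 across genes, which are not independent replicates. The next counts cover only the 37 results on single members that passed in at least 1 setting, main or alternative. Over these and their alternatives, 629 in all, 522 kept their direction and side of the threshold. Another 46 lost the call, 60 gained it and 1 changed sign. That was Echs1 in KO MI against KO sham, at -0.21 and not called. It ran from -0.46 without KO sham replicate 1 to 0.05 without KO sham replicate 2. Results that passed in no setting were left out of these counts, and signs changed there too. Slc25a20 in KO differed by -0.03, while both KO MI arrays (9.71 and 10.02) lay above KO sham replicate 1 (9.63). Cyclic loess moved the median difference of the members in WT from -0.335 to -0.172. The compared groups alone were not run for the difference of responses and the averaged effect, which need all arrays. The number of arrays limits every value, and detection above background was not tested.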
